A study of Mus musculus with 18 samples.

Results

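Lecticans, tenascins and link proteins are main components of the extracellular matrix of the brain, and 10 genes of this matrix were followed in the mouse cerebellum. They are the tenascins *Tnc* and *Tnr*, the lecticans *Acan*, *Vcan*, *Ncan* and *Bcan*, the link proteins *Hapln1*, *Hapln2* and *Hapln4*, and the secreted metalloprotease *Adamts10*. These 10 genes were picked by symbol out of 54752 genes in the RNA files, and all 10 are also among the 22523 genes of the ribosome footprint files. *Tnc* and *Adamts10* were selected on the fall of their level in the mutants, so their values against control are a description, with no test. The other 8 genes were tested.

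The tissue was the cerebellum of mice 3 weeks old on the C57BL/6J background (B6J). Every group, the B6J controls included, carries the B6J mutation that impairs processing of *n-Tr20*, a gene for the arginine tRNA that reads AGA codons. B6J.*Gtpbp1*-/- mice in addition lack *Gtpbp1*, through an allele that carries PGK-Neo in place of sequence from exons 3 and 4, made congenic on B6J (over 10 backcrosses). B6J-*Gtpbp2*-/- mice carry *nmf205*, a null mutation of *Gtpbp2* made with the mutagen ENU. Both genes encode translational GTPases, and the comparisons with B6J show the matrix genes when either GTPase is missing while this tRNA is scarce. Each genotype had 3 libraries of poly(A) RNA, labelled batch 1, and 3 libraries of ribosome footprints on coding sequence, labelled batch 2, so batch and assay cannot be told apart but genotypes were compared within a batch. The RNA libraries held 37794333 to 52114145 counts and the footprint libraries 3630823 to 10442573. All levels are CPM (counts divided by the library total after TMM scaling, which corrects each total by a factor of its own) unless another scale is named, replicates 1 to 3 are listed in that order, and B6J.*Gtpbp1*-/- and B6J-*Gtpbp2*-/- are shortened to *Gtpbp1*-/- and *Gtpbp2*-/-.

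Lecticans are chondroitin sulfate proteoglycans whose N-terminal domain binds hyaluronan, the long sugar chain that forms the scaffold of brain matrix. Link proteins of the Hapln family clamp that bond, and tenascin-R joins lecticans at their C-terminal ends, which together builds the perineuronal nets around neurons such as those of the deep cerebellar nuclei. Tenascin-C belongs to the matrix of the developing brain and of astrocytes and Bergmann glia, whereas ADAMTS10 is known for its place in fibrillin microfibrils.

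The label of the *Gtpbp1* mutants was visible in the data. *Gtpbp1* RNA was 71.6 ± 5.61 CPM (SD, n = 3) in B6J, 43.2 ± 1.32 in *Gtpbp1*-/- and 65.6 ± 6.76 in *Gtpbp2*-/- mice, and its footprints were 92.0 ± 21.9, 31.1 ± 5.41 and 69.1 ± 9.10. In both assays the 3 *Gtpbp1*-/- libraries lay below all others. *Gtpbp2* RNA was 82.4 ± 7.53 in B6J and 71.3 ± 5.14 in *Gtpbp2*-/- mice with overlapping libraries. Its footprints were 44.9, 36.0 and 38.8 in B6J and 28.9, 26.2 and 7.51 in *Gtpbp2*-/- mice, so there all 3 mutant libraries lay below B6J, replicate 3 most. The tissue label was checked with marker genes. Granule neuron markers (10 genes, *Cbln3* the most abundant) summed to 7286, 7661 and 7268 CPM of B6J RNA, and Purkinje cell markers (8 genes, *Itpr1* the most abundant) to 8641, 9752 and 7313. Skeletal muscle markers (8 genes) summed to 5.82, 3.10 and 3.47 with *Myh2* at 0, so RNA of the cerebellum was present and muscle RNA was near absent.

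Several libraries stood apart before any comparison of genotypes. In RNA, B6J replicates 1 and 3 had counts for 26293 and 26139 genes, fewer than the 29681 to 31418 of the other libraries. Mitochondrial transcripts took 5.93%, 5.61% and 6.18% of B6J counts, 4.42%, 4.99% and 4.56% in *Gtpbp1*-/- mice and 5.01%, 4.80% and 5.04% in *Gtpbp2*-/- mice, so this share was higher in each B6J library than in any mutant one. By the Y-linked gene *Ddx3y* (more than 100 counts), B6J replicate 2 and *Gtpbp1*-/- replicates 1 and 2 were male in RNA. In footprints the males were B6J replicates 1 and 2 and *Gtpbp1*-/- replicate 1, and no *Gtpbp2*-/- library was male. Cartilage and bone markers (12 genes, *Col1a1* the most abundant) summed to 144, 397 and 593 CPM in B6J footprints, where *Matn3* was at 0. They summed to 1015, 1143 and 1763 in *Gtpbp1*-/- footprints and to 349, 582 and 229 in *Gtpbp2*-/- footprints, against 49.7 to 78.5 in every RNA library. These sums were mostly *Col1a1*, at 940, 829 and 1686 CPM in *Gtpbp1*-/- footprints, a collagen that fibroblasts of the meninges also make. Vessel and meninges markers (10 genes, *Col1a2* the most abundant) summed to 689, 883 and 959 CPM in B6J footprints, 2089, 1337 and 1936 in *Gtpbp1*-/- and 1146, 1217 and 1062 in *Gtpbp2*-/- footprints. Muscle markers summed to 8.54, 20.6 and 15.9 in B6J footprints, 40.5, 18.9 and 51.4 in *Gtpbp1*-/- and 4.21, 8.17 and 4.33 in *Gtpbp2*-/- footprints. Sums of the collagen-rich lists were thus highest in the *Gtpbp1*-/- footprints, and muscle markers were highest in 2 of those 3 libraries. Among them replicate 2 alone was high for *Col2a1*, the main cartilage collagen, at 181 CPM against 4.33 to 23.4 elsewhere. Cartilage is known to express *Acan* and *Hapln1* as well, and the part of these tissues in any footprint value was not tested.

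Levels between genes were compared as TPM, the length-corrected level that kallisto gives. In B6J RNA the order was *Bcan* at 125 ± 13.7 TPM (SD, n = 3), *Adamts10* at 78.0 ± 6.90, *Hapln4* at 52.5 ± 8.32, *Tnr* at 33.7 ± 5.37, *Hapln2* at 20.2 ± 3.77, *Vcan* at 13.2 ± 1.44, *Tnc* at 12.8 ± 1.67, *Hapln1* at 11.95 ± 5.33, *Ncan* at 8.77 ± 1.50 and *Acan* at 0.574 ± 0.461. *Vcan* and *Tnc* had overlapping libraries, and *Hapln1* overlapped *Hapln2*, *Vcan*, *Tnc* and *Ncan*, so the order within each of these pairs is not fixed by these data. Every *Ncan* library was below every *Vcan* and *Tnc* library. *Bcan* stood above 96.0% of the 32368 genes with any RNA in B6J, and *Acan* above 36.7%. Aggrecan RNA was thus the scarcest of the lecticans at this age and brevican RNA the most abundant.

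These gene sums mix coding transcripts with others. All TPM of *Tnc*, *Acan* and *Ncan* lay in annotated coding transcripts, but in B6J mice coding transcripts held 86.6% of *Hapln4*, 60.6% of *Bcan*, 54.7% of *Hapln1*, 14.5% of *Hapln2* and 10.8% of *Adamts10*, as means of 3 libraries. For *Adamts10* the rest was mostly retained-intron transcripts (54.2%) and transcripts annotated for nonsense-mediated decay (30.4%). Coding *Adamts10* alone was 8.67, 9.91 and 6.24 TPM in B6J, a level below the sum for *Tnc*. By these estimates, high *Adamts10* RNA is mainly RNA that is not annotated as coding. How kallisto divides reads among overlapping transcripts, 15 of them for *Adamts10*, is an estimate, and its error was not assessed.

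*Tnc*, the tenascin of glia and of development, had RNA of 59.7, 60.9 and 48.2 CPM in B6J, 13.2, 16.3 and 16.1 in *Gtpbp1*-/- and 15.6, 19.6 and 18.5 in *Gtpbp2*-/- mice. Every mutant library was below every B6J library. The log2 fold change was -1.89 (SE 0.12) in *Gtpbp1*-/- and -1.66 (SE 0.12) in *Gtpbp2*-/- mice, given without a test because the gene was chosen by this fall. In bulk tissue, fewer cells of a type and less RNA per cell cannot be told apart. Footprints of *Tnc* were 70.1, 93.3 and 125 CPM in B6J, 48.5, 77.3 and 72.1 in *Gtpbp1*-/- and 58.7, 48.8 and 12.4 in *Gtpbp2*-/- mice. Here *Gtpbp1*-/- libraries overlapped B6J. Every *Gtpbp2*-/- library was below every B6J library, but the low *Gtpbp2*-/- mean leaned on replicate 3. The log2 fold changes of footprints were -0.54 (SE 0.24) and -1.29 (SE 0.63), the latter -0.83 without *Gtpbp2*-/- replicate 3. Footprints relative to RNA (translational efficiency, the genotype effect in footprints minus that in RNA) gave 1.35 (SE 0.29) in *Gtpbp1*-/- and 0.36 (SE 0.61) in *Gtpbp2*-/- mice on the log2 scale. The *Tnc* footprint difference in *Gtpbp1*-/- mice was smaller than its RNA difference, given again without a test, and in *Gtpbp2*-/- mice the value turned to -0.14 without footprint replicate 1. *8030451A03Rik* lies on the opposite strand of the same locus, and since the RNA libraries carry no strand mark, reads of the shared stretch cannot be told apart.

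*Tnr*, the tenascin of perineuronal nets and oligodendrocytes, had similar RNA in all groups. It was 219, 250 and 189 CPM in B6J, 196, 216 and 250 in *Gtpbp1*-/- and 222, 219 and 141 in *Gtpbp2*-/- mice, with replicate 3 of *Gtpbp2*-/- the lowest library. The groups overlapped, and the edgeR quasi-likelihood test gave log2 fold changes of 0.00 (Benjamini-Hochberg adjusted p = 0.992, 1 of 3 libraries above the B6J range) and -0.18 (adjusted p = 0.633, 1 of 3 libraries below it). Without *Gtpbp2*-/- replicate 3 the latter was 0.00. Footprints were 193, 131 and 128 CPM in B6J, 110, 132 and 164 in *Gtpbp1*-/- and 145, 148 and 125 in *Gtpbp2*-/- mice. These overlapped as well, with log2 fold changes of -0.15 and -0.11.

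**Figure D1:**
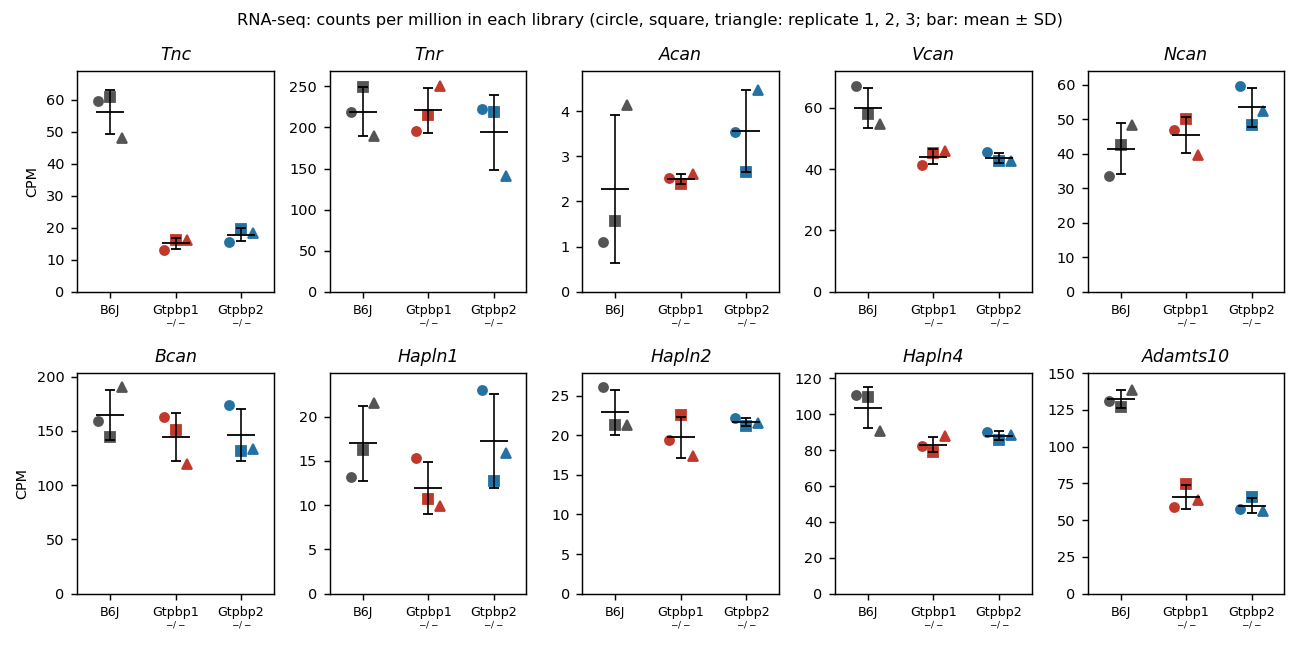
RNA level of each of the 10 matrix genes in CPM (vertical axis, from 0) in B6J, *Gtpbp1*-/- and *Gtpbp2*-/- cerebellum; each symbol is 1 library and the bars are mean ± SD of 3. *Tnc*, *Adamts10* and *Vcan* libraries of both mutants lie below all B6J libraries. Those of *Hapln4* do too, with a small gap to B6J replicate 3.

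Of the 8 tested genes, 2 passed the edgeR test in RNA of *Gtpbp1*-/- mice (*Vcan* and *Hapln4*, both lower), where 13.8% of the 24577 genes tested passed and 7.93% were lower. In *Gtpbp2*-/- mice 1 of 8 passed (*Vcan*, lower), where 8.63% of 24859 genes passed and 5.02% were lower. Counts of 2 and 1 among 8 genes lie above those shares but are too small to say anything particular about the matrix genes. The median log2 fold change of the 8 was -0.21 against 0.03 over all genes in *Gtpbp1*-/- mice, and -0.13 against 0.03 in *Gtpbp2*-/- mice. DESeq2 called the same number, 2 and 1.

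*Vcan*, the large lectican versican, was the tested gene that fell in both mutants. Its RNA was 67.2, 58.0 and 54.7 CPM in B6J, 41.2, 45.2 and 45.8 in *Gtpbp1*-/- and 45.6, 42.5 and 42.8 in *Gtpbp2*-/- mice, so all 6 mutant libraries lay below the lowest B6J library. In *Gtpbp1*-/- mice it fell by 0.45 on the log2 scale (SE 0.0945, edgeR quasi-likelihood test, Benjamini-Hochberg adjusted p = 0.00625, lower in 3 of 3 libraries). The fall in *Gtpbp2*-/- mice was -0.47 (SE 0.0948, edgeR quasi-likelihood test, Benjamini-Hochberg adjusted p = 0.0119, lower in 3 of 3 libraries). The second call was lost without B6J replicate 1 (-0.37, adjusted p = 0.0621), and both were lost with B6J replicate 2 as the lone control (-0.40, adjusted p = 0.0610, and -0.41, adjusted p = 0.156). Over all alternatives, by edgeR or DESeq2, the lowest adjusted p was 6.33e-05 in *Gtpbp1*-/- and 0.000361 in *Gtpbp2*-/- mice. The highest in each mutant came with the lone control. Among its transcripts, *Vcan-203*, the longest, was 8.44, 6.85 and 6.81 TPM in B6J, 5.33, 6.40 and 6.01 in *Gtpbp1*-/- and 5.86, 5.31 and 5.42 in *Gtpbp2*-/- mice. *Vcan-202* was 3.21, 3.21 and 2.70 TPM in B6J, 2.90, 2.54 and 3.65 in *Gtpbp1*-/- and 3.40, 4.01 and 3.56 in *Gtpbp2*-/- mice. Mutant values of *Vcan-203* lay below every B6J value, while those of *Vcan-202* overlapped B6J in *Gtpbp1*-/- and lay above it in *Gtpbp2*-/- mice; the difference between transcripts was not tested.

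The fall of *Vcan* RNA had no counterpart past the test in footprints. These were 71.2, 91.1 and 79.5 CPM in B6J, 110, 76.5 and 56.3 in *Gtpbp1*-/- and 70.4, 66.2 and 88.3 in *Gtpbp2*-/- mice, with overlapping groups. The log2 fold changes were 0.02 (SE 0.24, 95% interval -0.46 to 0.49) and -0.10 (SE 0.17, -0.44 to 0.24). Intervals this wide do not show that footprints stayed level. For translational efficiency the edgeR quasi-likelihood test gave 0.47 (Benjamini-Hochberg adjusted p = 0.639) and 0.38 (adjusted p = 0.465), with 2 of 3 *Gtpbp2*-/- footprint libraries below the B6J range. The antisense gene *Gm4117* overlaps *Vcan*, and without a strand mark its reads cannot be told apart.

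*Ncan*, neurocan, is a lectican made by neurons and astrocytes. Its RNA was 33.6, 42.4 and 48.4 CPM in B6J, 46.8, 49.99 and 39.8 in *Gtpbp1*-/- and 59.6, 48.5 and 52.5 in *Gtpbp2*-/- mice, so the 3 *Gtpbp2*-/- libraries lay above B6J, 1 of them barely. The log2 fold change was 0.13 in *Gtpbp1*-/- and 0.36 in *Gtpbp2*-/- mice, where the edgeR quasi-likelihood test gave a Benjamini-Hochberg adjusted p of 0.118 with 3 of 3 libraries above B6J. That value became 0.49 (adjusted p = 0.0386) without B6J replicate 3 and had an adjusted p of 0.0215 with no filter on low counts, in a range of 0.0215 to 0.337 over alternatives. Footprints were 96.4, 114 and 84.8 CPM in B6J, 89.6, 127 and 196 in *Gtpbp1*-/- and 75.5, 77.4 and 78.8 in *Gtpbp2*-/- mice. Here the 3 *Gtpbp2*-/- libraries were the lowest, below every B6J library, with log2 fold changes of 0.48 in *Gtpbp1*-/- and -0.35 in *Gtpbp2*-/- mice. Translational efficiency of *Ncan* in *Gtpbp2*-/- mice was -0.70 on the log2 scale with 3 of 3 footprint libraries lower, which did not pass the edgeR quasi-likelihood test (unadjusted p = 0.00449, Benjamini-Hochberg adjusted p = 0.244).

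*Bcan*, brevican, the most abundant of the 10 genes in TPM, showed no difference past the test. Its RNA was 159, 145 and 190 CPM in B6J, 163, 151 and 119 in *Gtpbp1*-/- and 174, 132 and 133 in *Gtpbp2*-/- mice, with log2 fold changes of -0.20 and -0.18. Footprints were 311, 391 and 315 CPM in B6J, 248, 330 and 473 in *Gtpbp1*-/- and 253, 271 and 306 in *Gtpbp2*-/- mice. The 3 *Gtpbp2*-/- footprint libraries lay below B6J and the *Gtpbp1*-/- ones overlapped it, with log2 fold changes of 0.05 and -0.29.

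*Acan*, aggrecan, the lectican of cartilage and of perineuronal nets, was scarce and uneven. Its RNA was 1.10, 1.57 and 4.14 CPM in B6J, 2.52, 2.39 and 2.61 in *Gtpbp1*-/- and 3.55, 2.65 and 4.46 in *Gtpbp2*-/- mice, so B6J replicate 3 lay with the mutants. The log2 fold changes were 0.13 and 0.63, and in *Gtpbp2*-/- mice the edgeR quasi-likelihood test gave a Benjamini-Hochberg adjusted p of 0.473 with 1 of 3 libraries above the B6J range. Without B6J replicate 3 the value was 1.41 (adjusted p = 0.0237, in a range of 0.0237 to 0.780 over alternatives), so 1 control library decides it. In *Gtpbp1*-/- mice the RNA value was -0.20 without B6J replicate 1 and 0.90 without replicate 3. Footprints were 18.4, 9.22 and 14.3 CPM in B6J, 14.4, 104 and 10.9 in *Gtpbp1*-/- and 19.4, 18.8 and 15.2 in *Gtpbp2*-/- mice. A single *Gtpbp1*-/- library, replicate 2, was far above the rest, and it was also the library high in the cartilage genes *Col2a1* (181 CPM), *Comp* (35.7) and *Matn3* (6.29), picked from their list after their values were seen. From the same list *Col11a1* (40.9), *Col9a1* (15.7) and *Ibsp* (7.89) were also higher in this library than in any other footprint library. *Matn1* did not follow and was highest in *Gtpbp2*-/- replicate 3 (5.004 CPM) and B6J replicate 1 (3.37). *Col1a1* (829) and *Bglap* (15.2) did not follow either, and were lowest in replicate 2 among the 3 *Gtpbp1*-/- libraries. The log2 fold change of 1.65 in *Gtpbp1*-/- footprints became -0.12 without that library. The value in *Gtpbp2*-/- footprints was 0.34.

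The link proteins are described in the order of their RNA level in TPM. *Hapln4*, a link protein of perineuronal nets in cerebellum and brainstem, had RNA of 111, 110 and 90.4 CPM in B6J, 82.3, 79.2 and 87.9 in *Gtpbp1*-/- and 90.4, 85.6 and 88.2 in *Gtpbp2*-/- mice. All *Gtpbp1*-/- libraries lay below B6J, the gap to B6J replicate 3 being small. In *Gtpbp1*-/- mice it fell by 0.33 on the log2 scale (SE 0.0881, edgeR quasi-likelihood test, Benjamini-Hochberg adjusted p = 0.0262, lower in 3 of 3 libraries). This call was fragile: it was lost without *Gtpbp1*-/- replicate 1 (-0.32, adjusted p = 0.0830) or 2 (-0.29, 0.126), without B6J replicate 1 (-0.28, 0.126) or 2 (-0.29, 0.107), with upper quartile scaling (0.0504), with sex in the model (0.0717) and with transcript length as an offset (0.176). Over all alternatives the adjusted p ran from 0.00250 to 0.176. The *Gtpbp2*-/- log2 fold change was -0.24 (edgeR quasi-likelihood test, Benjamini-Hochberg adjusted p = 0.121), and -0.33 without B6J replicate 3 (adjusted p = 0.0249, in a range of 0.0249 to 0.353), with 3 of 3 libraries below the B6J range, 1 of them barely. Footprints were 152, 165 and 261 CPM in B6J, 139, 187 and 232 in *Gtpbp1*-/- and 203, 261 and 199 in *Gtpbp2*-/- mice, with overlap in both and log2 fold changes of -0.05 and 0.20. Translational efficiency was 0.28 and 0.44, neither past the test.

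*Hapln2*, a link protein of oligodendrocytes found at nodes of Ranvier, showed no difference past the test. Its RNA was 26.1, 21.3 and 21.2 CPM in B6J, 19.4, 22.5 and 17.3 in *Gtpbp1*-/- and 22.2, 21.2 and 21.6 in *Gtpbp2*-/- mice, with log2 fold changes of -0.22 and -0.09. Footprints were 19.1, 27.9 and 32.7 CPM in B6J, 33.5, 24.2 and 38.5 in *Gtpbp1*-/- and 27.0, 35.4 and 41.1 in *Gtpbp2*-/- mice. Both overlapped B6J, with footprint log2 fold changes of 0.27 and 0.38.

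*Hapln1*, the link protein shared by cartilage and brain, varied more between replicates. Its RNA was 13.2, 16.3 and 21.6 CPM in B6J, 15.3, 10.6 and 9.91 in *Gtpbp1*-/- and 23.0, 12.8 and 15.9 in *Gtpbp2*-/- mice. In *Gtpbp1*-/- mice 2 of 3 libraries lay below B6J, and the log2 fold change of -0.51 did not pass the edgeR quasi-likelihood test (Benjamini-Hochberg adjusted p = 0.131). It passed without *Gtpbp1*-/- replicate 1 (-0.73, adjusted p = 0.0382) and with no filter on low counts (adjusted p = 0.00445), in a range of 0.00445 to 0.396. For *Gtpbp2*-/- mice the value was 0.01, and its sign changed between alternatives. Footprints were 38.4, 34.7 and 38.5 CPM in B6J, 20.4, 57.1 and 25.1 in *Gtpbp1*-/- and 22.5, 26.7 and 28.2 in *Gtpbp2*-/- mice. Apart from *Gtpbp1*-/- replicate 2, the library high in *Col2a1*, every mutant footprint library lay below B6J. In *Gtpbp1*-/- mice the footprint log2 fold change was -0.11, and -0.69 without replicate 2. In *Gtpbp2*-/- mice it was -0.53, lower in 3 of 3 libraries, which did not pass the edgeR quasi-likelihood test (unadjusted p = 0.0146, Benjamini-Hochberg adjusted p = 0.169).

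**Figure D2:**
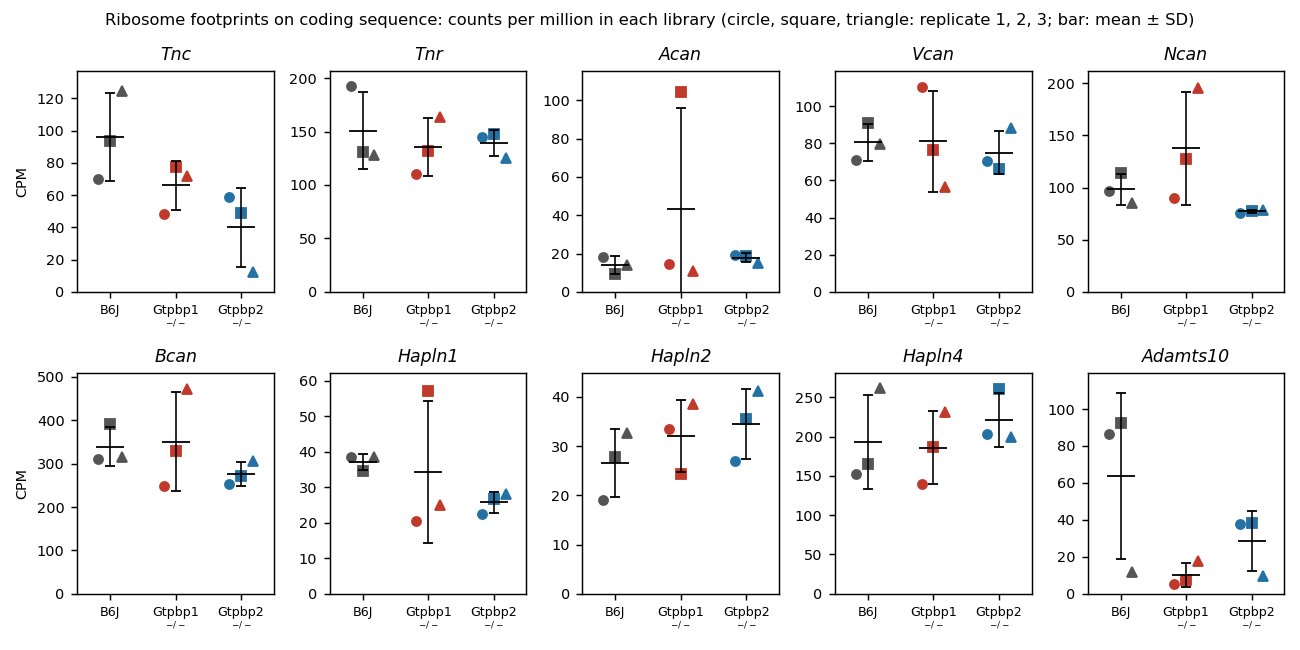
Ribosome footprints on the coding sequence of each of the 10 matrix genes in CPM (vertical axis, from 0) in B6J, *Gtpbp1*-/- and *Gtpbp2*-/- cerebellum; each symbol is 1 library and the bars are mean ± SD of 3. *Acan* stood at 104 in *Gtpbp1*-/- replicate 2 (its SD bar is cropped at 0) and *Adamts10* at 12.03 in B6J replicate 3.

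*Adamts10* had RNA of 131, 127 and 139 CPM in B6J, 59.1, 74.7 and 63.5 in *Gtpbp1*-/- and 57.4, 65.7 and 56.2 in *Gtpbp2*-/- mice. All mutant libraries lay far below all B6J libraries. The log2 fold change was -1.02 (SE 0.0906) in *Gtpbp1*-/- and -1.16 (SE 0.0860) in *Gtpbp2*-/- mice, given without a test because this fall chose the gene. Its coding transcripts were 3.99, 5.98 and 3.73 TPM in *Gtpbp1*-/- and 5.48, 5.09 and 4.49 in *Gtpbp2*-/- mice, below the B6J values of 8.67, 9.91 and 6.24. Transcripts annotated for nonsense-mediated decay were 25.8, 24.2 and 20.3 TPM in B6J, 12.1, 15.4 and 14.8 in *Gtpbp1*-/- and 12.1, 13.8 and 10.6 in *Gtpbp2*-/- mice. Retained-intron transcripts were 36.3, 37.0 and 54.6 TPM in B6J, 19.8, 28.2 and 25.6 in *Gtpbp1*-/- and 17.3, 23.3 and 26.9 in *Gtpbp2*-/- mice. All 3 classes were lower in every mutant library than in any B6J library, so the coding share of 10.5% and 12.8% in the mutants stayed near the 10.8% of B6J. Footprints of *Adamts10* were 86.5, 92.6 and 12.03 CPM in B6J, 5.29, 7.54 and 17.6 in *Gtpbp1*-/- and 37.6, 38.1 and 9.82 in *Gtpbp2*-/- mice. B6J replicate 3 and *Gtpbp2*-/- replicate 3 were low within their groups, so both mutants overlapped B6J. The footprint log2 fold change was -2.67 (SE 0.91) in *Gtpbp1*-/- mice and -3.17 without B6J replicate 3. In *Gtpbp2*-/- mice it was -1.18 (SE 0.99), little more than its error, and -1.69 without B6J replicate 3. Translational efficiency was -1.65 (SE 0.88) in *Gtpbp1*-/- and -0.04 (SE 0.93) in *Gtpbp2*-/- mice.

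In footprints and in translational efficiency none of the 8 tested genes passed edgeR. For *Gtpbp1*-/- footprints 0 of 8 passed, with 0 at an unadjusted p under 0.05 and 0 by DESeq2, where 0.745% of 13956 genes passed, 1763 at an unadjusted p under 0.05 and 406 by DESeq2. For *Gtpbp2*-/- footprints 0 of 8 passed, with 1 (*Hapln1*) at an unadjusted p under 0.05 and 0 by DESeq2, where 2.94% of 13797 genes passed, 2355 at an unadjusted p under 0.05 and 655 by DESeq2. Such low background shares mean that a count of 0 among 8 genes is not a result about the matrix genes. For translational efficiency 0 of 8 passed edgeR in *Gtpbp1*-/- mice, with 0 at an unadjusted p under 0.05 and 0 by DESeq2, against a background of 0%, which is 0 of 13086 genes by edgeR, 1170 at an unadjusted p under 0.05 and 58 by DESeq2. Likewise in *Gtpbp2*-/- mice 0 of 8 passed edgeR, with 1 (*Ncan*) at an unadjusted p under 0.05 and 0 by DESeq2, against a background of 0.00773%, which is 1 of 12931 genes by edgeR, 1554 at an unadjusted p under 0.05 and 160 by DESeq2. The median log2 fold change of the 8 genes in translational efficiency was 0.39 against 0.03 over all genes in *Gtpbp1*-/- mice, and -0.02 against 0.03 in *Gtpbp2*-/- mice. In footprints the medians were 0.03 against 0.01 and -0.11 against 0.01.

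**Figure D3:**
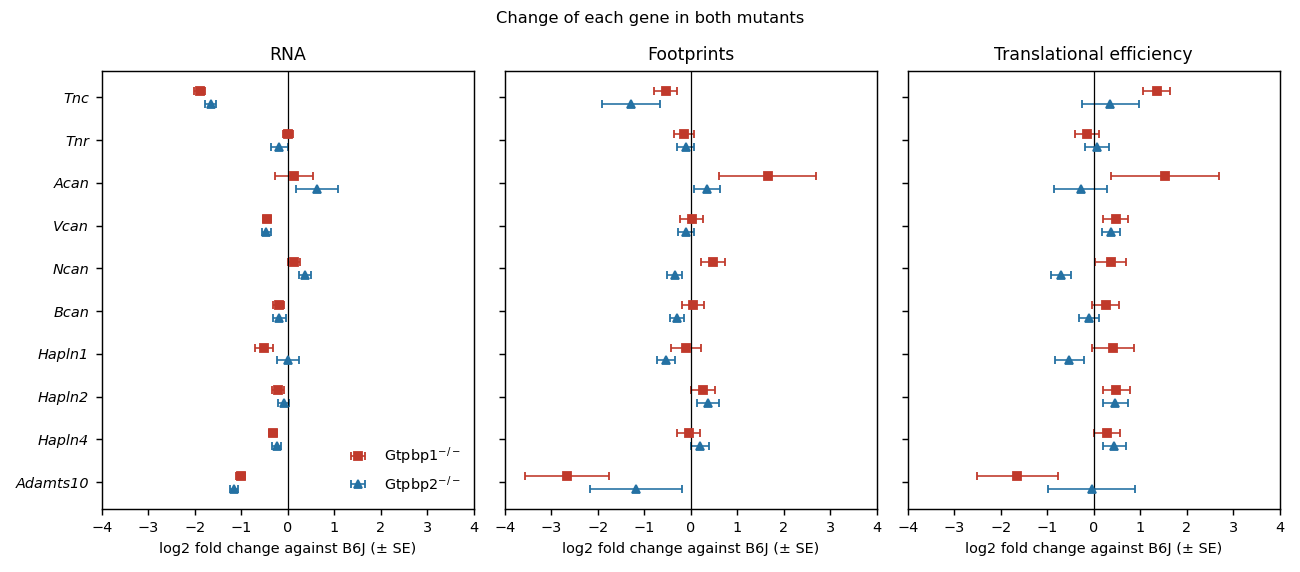
Log2 fold change of the 10 matrix genes against B6J (horizontal axis) in RNA, footprints and translational efficiency for *Gtpbp1*-/- and *Gtpbp2*-/- mice; points are edgeR estimates and bars are ± SE. In RNA the points of *Tnc* (-1.89 and -1.66) and *Adamts10* (-1.02 and -1.16) are farthest below 0.

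The mutants were also compared with each other, which asks whether RNA or footprints of these genes differ by which GTPase is missing. In RNA 0 of 8 tested genes passed edgeR, with 2 at an unadjusted p under 0.05 and 0 by DESeq2, where 0.0595% of 25190 genes passed, 899 at an unadjusted p under 0.05 and 46 by DESeq2. *Tnc* differed by -0.23 and *Adamts10* by 0.14 on the log2 scale (*Gtpbp1*-/- minus *Gtpbp2*-/-), which are small beside their distance from B6J. In footprints 0 of 8 passed edgeR, with 1 (*Ncan*) at an unadjusted p under 0.05 and 0 by DESeq2, against a background of 0%, which is 0 of 14142 genes by edgeR, 1523 at an unadjusted p under 0.05 and 100 by DESeq2. *Ncan* footprints were higher in 3 of 3 *Gtpbp1*-/- libraries, by 0.82 on the log2 scale (edgeR quasi-likelihood test, Benjamini-Hochberg adjusted p = 0.298), while its RNA differed by -0.23. Footprints of *Tnc* differed by 0.73 and those of *Adamts10* by -1.50, each with the uneven libraries named above.

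The partners of these genes were read from gene lists, described by counts and medians, where higher or lower means past the edgeR quasi-likelihood test at a Benjamini-Hochberg adjusted p of 0.05. Among 35 related matrix proteins, 4 were higher and 7 lower in *Gtpbp1*-/- RNA (31.4% called, median log2 fold change 0.15, 0.03 over all genes) and 4 higher and 5 lower in *Gtpbp2*-/- RNA (25.7% called, median 0.20, 0.03 over all genes). Over all genes 13.8% and 8.63% were called in RNA and 0.745% and 2.94% in footprints, the background for each list here. *Tnn*, tenascin-N and closest in family to *Tnc* and *Tnr*, was 1.51 ± 0.417 CPM in B6J, 0.147 ± 0.110 in *Gtpbp1*-/- and 0.240 ± 0.141 in *Gtpbp2*-/- mice (SD, n = 3), a fall by 3.31 and 2.65 on the log2 scale. These mutant levels are near the floor, so the size of the fall is uncertain. Footprints of *Tnn* did not fall, at 0.310 ± 0.269 CPM in B6J, 0.929 ± 0.410 in *Gtpbp1*-/- and 0.381 ± 0.345 in *Gtpbp2*-/- mice. They were too low to be tested against B6J. *Spock1*, a testican proteoglycan, fell from 236 ± 16.6 CPM to 135 ± 5.59 and 155 ± 17.5, and *Spock3* from 137 ± 13.7 to 105 ± 5.02 and 109 ± 9.32. Of the secreted synaptic LGI proteins, *Lgi3* fell from 141 ± 6.30 CPM to 88.5 ± 11.5 and 105 ± 16.1, whereas *Lgi2* rose from 134 ± 13.8 to 178 ± 16.6 and 179 ± 8.74. Related matrix genes thus moved in both directions. In footprints 1 of 34 was higher and 0 lower in *Gtpbp1*-/- mice (2.94% against 0.745% over all genes, median 0.65 against 0.01), and 2 were higher and 2 lower of 34 in *Gtpbp2*-/- mice (11.8% against 2.94%, median 0.18 against 0.01). Vessel and meninges markers had footprint medians of 0.86 and 0.28, and their part in these shifts was not tested.

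Enzymes that build chondroitin sulfate, the sugar chain carried by the lecticans, had 1 higher and 4 lower of 21 tested in *Gtpbp1*-/- RNA (23.8%, median -0.09) and 0 higher and 2 lower of 21 in *Gtpbp2*-/- RNA (9.52%, median -0.06). The genes lower in both encode sulfotransferases: *Ust* fell from 117 ± 8.14 CPM to 76.9 ± 6.42 and 78.1 ± 4.35, and *Chst15* from 38.8 ± 4.85 to 28.8 ± 2.53 and 26.4 ± 3.54. Genes of hyaluronan synthesis, breakdown and binding had 2 higher and 1 lower of 17 (17.6%, median -0.10) and 1 higher and 0 lower of 17 (5.88%, median -0.04). *Stab1*, a scavenger receptor of macrophages and vessel lining and a relative of the hyaluronan receptor *Stab2*, rose from 13.5 ± 1.13 CPM to 18.1 ± 0.216 and 21.6 ± 4.08. Matrix proteases and inhibitors had 3 higher and 5 lower of 32 (25%, median 0.08) and 1 higher and 1 lower of 32 (6.25%, median 0.07). In *Gtpbp2*-/- mice the shares called in these 3 lists were near or below the 8.63% over all genes, so those counts say nothing particular about the lists. The protease *Mmp24* fell from 345 ± 24.7 CPM to 233 ± 24.2 and 236 ± 17.3, and the inhibitor *Timp2* rose from 72.4 ± 3.38 to 118 ± 29.2 and 141 ± 34.7. In footprints 0 genes of chondroitin sulfate synthesis (medians 0.09 and -0.09) and of the proteases (0.23 and 0.18) passed edgeR in either mutant, and 1 of 13 hyaluronan genes, *Tnfaip6*, was higher in *Gtpbp2*-/- mice (7.69% against 2.94% over all genes, medians 0.26 and 0.10).

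For *Adamts10*, the list of fibrillin microfibril genes had 4 higher and 2 lower of 20 in *Gtpbp1*-/- RNA (30% called against 13.8% over all genes, median 0.44 against 0.03) and 2 higher and 1 lower of 20 in *Gtpbp2*-/- RNA (15% against 8.63%, median 0.14 against 0.03). Vessel and meninges markers had RNA medians of 0.25 and 0.17 and sums of 409, 419 and 385 CPM in B6J, 467, 568 and 555 in *Gtpbp1*-/- and 375, 607 and 603 in *Gtpbp2*-/- mice, and their part was not tested. *Fbln5*, an elastic fibre protein, rose from 7.41 ± 1.20 CPM to 30.8 ± 4.30 and 28.9 ± 5.35, and *Fbn1*, fibrillin-1, from 13.7 ± 1.54 to 21.8 ± 1.63 and 20.9 ± 4.51. *Ltbp3*, which binds latent TGF-beta, fell from 75.3 ± 7.88 CPM to 54.1 ± 7.01 and 55.3 ± 2.42. The microfibril genes that passed the test in both mutants thus included rises and a fall. Receptors of tenascins and proteoglycans had 2 higher and 7 lower of 35 (25.7%, median -0.07) and 1 higher and 3 lower of 35 (11.4%, median -0.10). *Sdc1*, syndecan-1, fell from 11.4 ± 1.91 CPM to 5.04 ± 0.656 and 4.51 ± 0.793, and *Rtn4r*, the Nogo receptor, from 34.9 ± 3.32 to 25.9 ± 2.96 and 26.4 ± 2.46. *Itga5*, a subunit of the main fibronectin receptor, rose from 5.33 ± 0.263 CPM to 8.05 ± 0.809 and 9.82 ± 1.91. In footprints 1 of 20 microfibril genes was higher in each mutant, *Mfap5* in *Gtpbp1*-/- (5% against 0.745% over all genes, median 0.59) and *Eln* in *Gtpbp2*-/- mice (5% against 2.94%, median 0.16). Of the receptors 0 of 33 passed edgeR in *Gtpbp1*-/- footprints (median 0.11), and in *Gtpbp2*-/- footprints *Itga5* was higher and *Sdc1*, *Rtn4r* and *L1cam* were lower, 4 of 32 (12.5% against 2.94%, median -0.17). *Tnfaip6*, *Mfap5*, *Eln* and *L1cam* are named after their values were seen. Between the mutants 0 genes of any of these 6 lists passed edgeR in RNA, where 0.0595% of 25190 genes passed. With so low a background this count says nothing particular about the lists.

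Several cell types that make the matrix genes also showed differences in their markers, and the part these play in the matrix results was not tested. Astrocyte and Bergmann glia markers, the cells of *Tnc*, *Ncan* and *Bcan*, summed to 6746, 7160 and 6334 CPM in B6J RNA, 6526, 5654 and 6204 in *Gtpbp1*-/- and 6198, 6211 and 5749 in *Gtpbp2*-/- mice, with *Slc1a3* the most abundant and none of the 12 at 0. Of the 12, 1 was higher and 4 lower in *Gtpbp1*-/- RNA (median log2 fold change -0.17) and 1 higher and 5 lower in *Gtpbp2*-/- RNA (-0.19). In footprints 0 of them passed edgeR in either mutant (medians 0.14 and 0.04). *Gfap*, the filament of reactive astrocytes, rose from 168 ± 10.7 CPM to 431 ± 87.5 and 395 ± 60.0, whereas *Hopx*, found in Bergmann glia, fell from 111 ± 8.54 to 74.9 ± 3.48 and 69.1 ± 14.2. Myelinating oligodendrocyte markers, the cells of *Hapln2*, summed to 11966, 10569 and 12228 CPM in B6J, 9008, 9043 and 7757 in *Gtpbp1*-/- and 12949, 9762 and 10484 in *Gtpbp2*-/- mice, with *Mbp* the most abundant. Of these 10 markers 7 were lower in *Gtpbp1*-/- RNA and 0 passed edgeR in *Gtpbp2*-/- RNA (medians -0.35 and 0.00). Their footprints summed to 12364, 10625 and 16280 CPM in B6J, 15919, 13931 and 12439 in *Gtpbp1*-/- and 15282, 16234 and 14565 in *Gtpbp2*-/- mice, with medians of 0.11 and 0.22 and 0 past edgeR, so the RNA fall was not seen there. Oligodendrocyte precursor markers, the cells known for *Vcan*, summed to 237, 233 and 265 CPM in B6J, 246, 253 and 205 in *Gtpbp1*-/- and 319, 242 and 280 in *Gtpbp2*-/- mice, with *Gpr17* the most abundant. Of these 8 markers 0 were lower in either mutant by edgeR in RNA and 1 was higher in *Gtpbp2*-/- RNA, and 0 passed in footprints (medians 0.30 and -0.11).

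Several markers of granule neurons and Purkinje cells were lower in RNA. Of 10 granule neuron markers 8 were lower in *Gtpbp1*-/- RNA (median log2 fold change -0.56) and 7 in *Gtpbp2*-/- RNA (median -0.53), and their sum was 4931, 4832 and 5571 CPM in *Gtpbp1*-/- and 5072, 5467 and 4734 in *Gtpbp2*-/- mice, below every B6J library. *Gabra6*, a receptor subunit of granule neurons, fell from 891 ± 73.3 CPM to 423 ± 48.0 and 442 ± 9.16. In footprints 0 and 7 of the granule markers were lower (medians -0.64 and -1.10). Of 8 Purkinje cell markers 3 and 5 were lower in RNA (medians -0.25 and -0.40), such as *Pvalb*, which fell from 461 ± 6.18 CPM to 349 ± 33.8 and 309 ± 39.3. Their footprints did not follow, with 0 past edgeR, medians of 0.11 and 0.41, sums of 11491, 7503 and 15316 CPM in B6J, 14072, 15267 and 8608 in *Gtpbp1*-/- and 17502, 17361 and 14916 in *Gtpbp2*-/- mice, and *Pvalb* at 1439 ± 459, 1549 ± 337 and 2429 ± 134. Of 10 vessel and meninges markers 3 and 2 were higher in RNA and 1 and 2 in footprints. *Ccnd2* was the granule precursor marker that passed, 1 of 6 in each mutant, and rose from 18.3 ± 4.75 CPM to 72.8 ± 13.7 and 69.9 ± 14.5. *Col9a1* was the lone cartilage and bone marker past the test in RNA, and it fell from 5.23 ± 1.45 CPM to 2.49 ± 0.339 and 2.5995 ± 0.720. Of 6 muscle markers tested 0 passed edgeR in RNA. Also past the test in both mutants were *Cbln1*, *Neurod1*, *Slc17a7*, *Grin2c*, *Car8*, *Itpka*, *Slc1a3* and *S100b*, all lower, and the microglia markers *Cx3cr1*, *Csf1r*, *C1qa* and *Ctss* and the vessel marker *Cldn5*, all higher.

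The genes whose RNA pattern over the 9 libraries was most like that of *Tnc* were *Ttpa* (Pearson r = 0.991 of log2 CPM, among 14173 coding genes), *Impa1* (0.990), *Stard4* (0.990), *Atg4d* (0.988) and *mt-Nd4* (0.986). The libraries fall into B6J and mutant clusters, so a high r mostly says that a gene is lower in the mutants. *Ttpa*, which encodes a vitamin E transfer protein, was 21.9 CPM in B6J and 12.4 and 13.7 in the mutants. For *Adamts10* the most similar were *Sphkap* (r = 0.988), *Ccdc63* (0.985), *Pcyox1l* (0.984), *Fndc5* (0.984) and *Usp28* (0.983). *Sphkap* was 893 CPM in B6J and 528 and 472 in the mutants.

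The members lie on 7 chromosomes of GRCm38, and lecticans sit beside link protein genes. *Vcan* (chr13:89655312-89742509, minus strand) and *Hapln1* (chr13:89539796-89611652, plus strand) are 43659 bases apart, *Ncan* and *Hapln4* on chromosome 8 are 2222 apart, and *Bcan* and *Hapln2* on chromosome 3 are 21519 apart, with 0 protein-coding genes between the members of each pair. Among these neighbours *Vcan* RNA fell in both mutants while *Hapln1* did not pass the test, and *Hapln4* fell in *Gtpbp1*-/- mice while *Ncan* did not pass. The difference within a pair was not tested. *Tnc* (chr4:63959785-64047015, minus strand) and *Adamts10* (chr17:33524204-33553782, plus strand) stand on chromosomes with no other member.

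Because the tRNA shared by all groups reads AGA, this codon was counted in the coding sequence of each member. *Vcan* held 45 AGA codons among 3354 codons, more than 99.1% of 21506 genes. AGA made 44.1% of its 102 arginine codons against a median of 22.2% over all genes. That share was 21.7% in *Tnc* and 9.76% in *Adamts10*, and ran from 0% (*Hapln4*) to 28.2% (*Acan*) in the other members. *Tnc* held 26 AGA codons among 2110, *Acan* 22 among 2132, *Ncan* 8 among 1268, *Adamts10* 8 among 1104, *Tnr* 7 among 1358, *Bcan* 6 among 883, *Hapln1* 6 among 356, *Hapln2* 1 among 341 and *Hapln4* 0 among 400. Per 100 codons *Tnc* had 1.23, *Vcan* 1.34 and *Adamts10* 0.725, around the median of 1.12 over all genes, so the high counts of *Vcan* and *Tnc* go with long coding sequences. For *Tnc*, *Vcan* and *Adamts10* the stretch of 30 codons with the most AGA codons is given, with each AGA in capitals. Only stretches within a single exon of these transcripts were searched, and the first was kept where several had the same count. Other stretches, such as those across exon borders, may hold as many or more. Each of these stretches was picked for its AGA count, so it is no measure of clustering. They are *Tnc* exon 12 of 26, chr4:63995572-63995661, minus strand, with 3 AGA codons, *Vcan* exon 7 of 15, chr13:89705130-89705219, minus strand, with 4, and *Adamts10* exon 5 of 25, chr17:33531672-33531761, plus strand, with 3. Footprints were deposited as sums per gene, so ribosome positions on these codons were not tested.
Tnc: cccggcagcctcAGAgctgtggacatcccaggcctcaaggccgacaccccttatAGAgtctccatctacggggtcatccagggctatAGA
Vcan: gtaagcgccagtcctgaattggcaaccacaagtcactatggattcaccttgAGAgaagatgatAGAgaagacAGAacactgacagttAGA
Adamts10: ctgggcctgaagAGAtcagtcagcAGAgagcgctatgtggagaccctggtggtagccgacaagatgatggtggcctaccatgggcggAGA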

How the data were processed

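The authors quantified poly(A) RNA on Gencode M20 transcripts with kallisto 0.42.4, and the deposited values are estimated counts and TPM per transcript. As deposited, footprint values are raw counts on coding sequence per gene, after rRNA removal with Bowtie2 2.2.3, mapping with HISAT2 2.1.0 and featureCounts. Estimated counts were summed per gene and rounded. Each pair of genotypes was fitted over all genes reaching 5 counts in 3 or more libraries (10 in each assay for translational efficiency, the assay by genotype interaction), with TMM scaling, the robust quasi-likelihood test of edgeR 4.0.16 and Benjamini-Hochberg adjustment at 0.05. CPM are counts over library totals multiplied by TMM factors computed over the 9 libraries of an assay. Alternatives were DESeq2 1.42.0, upper quartile scaling, no filter, all 9 libraries in 1 model, replicate number as block, sex from *Ddx3y*, a transcript length offset, and each library left out. The members and lists were chosen with earlier results of these data known. List genes are named where past the test in both mutants in RNA, at most 4 per mutant. Coding sequences and positions are from Gencode M21 on GRCm38, where all 10 members matched by versioned identifier. Some list genes, and the counts of the lists that hold them, are not reported here.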

Additional observations from a re-analysis of the deposited data

How the results depend on the processing

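Alternatives were run for the counts of genes past the test and for the 10 matrix genes, not for other genes of the lists. The falls of *Tnc* and *Adamts10* in RNA kept their direction under all alternatives, from -2.01 to -1.80 and from -1.12 to -0.94 in *Gtpbp1*-/- mice and from -1.77 to -1.57 and from -1.23 to -1.09 in *Gtpbp2*-/- mice. The cause of each change named here was not tested, except that leaving out libraries leaves fewer samples. Footprint libraries held 3630823 to 10442573 counts, and replicates differed by a chi-square per gene of 10.6 to 35.9 in footprints and 15.9 to 42.5 in RNA, more than counting error alone gives in either. With sex in the model, *Gtpbp2*-/- footprints are set against B6J replicate 3 alone and *Gtpbp2*-/- RNA against *Gtpbp1*-/- replicate 3 alone, each assumed to vary like the others, so these values rest on 1 library.

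For RNA of *Gtpbp1*-/- against B6J, 3398 genes passed (1449 higher, 42.6%), and upper quartile scaling gave 3349 (1837 higher, 54.9%). The replicate block gave 2237, the length offset 2229 and B6J replicate 2 as the lone B6J library, an alternative chosen after seeing the data, 1746, where that lone library is assumed to vary like the others. Leaving out 1 library gave 1934 (without *Gtpbp1*-/- replicate 2) to 3793. Of the 8 tested genes, 1 passed with upper quartile scaling, 1 with the block, 1 with sex, 1 with the length offset and 1 with the lone B6J library, and 1 to 2 with a library left out. With the block *Hapln4* had an adjusted p of 0.0855 in edgeR. The labels do not pair same-numbered libraries, whose deviations correlated from -0.144 to 0.201 in RNA and from -0.347 to 0.182 in footprints. With so few libraries these values cannot settle whether any were paired.

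For RNA of *Gtpbp2*-/- against B6J, 2146 passed (898 higher, 41.8%), 2015 with upper quartile scaling (1074 higher, 53.3%), 3409 with DESeq2, 1071 with sex, 1359 with the length offset and 277 with the lone B6J library. Leaving out 1 library gave 972 to 2370: 1402 and 1004 without *Gtpbp2*-/- replicates 2 and 3, and 972 and 1063 without B6J replicates 1 and 2. Of the 8 genes, 2 passed with no filter and 0 with the lone library (1 in edgeR with all libraries), and 0 to 4 with a library left out, 4 (*Ncan*, *Hapln4*, *Vcan* and *Acan*) without B6J replicate 3 and 0 without replicate 1.

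Between the mutants in RNA 15 passed (4 higher, 26.7%), 46 with DESeq2 (21 higher, 45.7%), 36 with no filter and 9 with sex, and 9 (without *Gtpbp1*-/- replicate 1) to 18 with a library left out. For *Gtpbp1*-/- footprints 104 passed (80 higher, 76.9%), 406 with DESeq2 (251 higher, 61.8%), 213 with no filter, 202 with all 9 libraries, 44 with the block and 56 with sex. Leaving out 1 library gave 22 to 198: 53 and 198 without *Gtpbp1*-/- replicates 1 and 3, and 22, 41 and 191 (91 higher, 47.6%) without B6J replicates 1, 2 and 3. For *Gtpbp2*-/- footprints 406 passed, 655 with DESeq2, 268 with all 9 libraries and 45 with sex. Leaving out 1 library gave 118 to 604: 118 and 168 without *Gtpbp2*-/- replicates 1 and 2, and 186 without B6J replicate 2. Between the mutants in footprints 0 passed edgeR, 100 DESeq2, 3 with upper quartile scaling, 15 with no filter, 1 with all 9 libraries and 1 with the block, and 0 to 40 with a library left out (40 without *Gtpbp2*-/- replicate 3).

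For translational efficiency in *Gtpbp1*-/- mice 0 passed edgeR and 58 DESeq2, and 0 to 167 with a library left out (167 without B6J footprint replicate 3). For efficiency in *Gtpbp2*-/- mice 1 passed, 160 with DESeq2, 2 with no filter and 0 with the block, and 0 to 160 with a library left out (160 without B6J footprint replicate 3). Sex was not run for efficiency.

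Signs of log2 fold changes turned as follows. With the lone B6J library, *Tnr* was -0.19 in *Gtpbp1*-/- RNA, and *Bcan* was 0.018 and *Hapln2* 0.027 in *Gtpbp2*-/- RNA. *Hapln1* in *Gtpbp2*-/- RNA was -0.0077 with the block, -0.026 with sex and -0.27 with the length offset. In footprints *Vcan* was -0.037 with the block and *Bcan* -0.067 with sex in *Gtpbp1*-/- mice, and with sex, against that lone replicate, *Tnr* was 0.12, *Hapln4* -0.23 and *Adamts10* 1.22 in *Gtpbp2*-/- mice. The efficiency of *Adamts10* in *Gtpbp2*-/- mice was 0.12 with the block. With a library left out, *Gtpbp1*-/- RNA ran from -0.10 to 0.10 for *Tnr*, -0.20 to 0.90 for *Acan* and -0.0039 to 0.25 for *Ncan*. The *Gtpbp2*-/- RNA values ran from -0.29 to 0.0043 for *Tnr*, -0.26 to 0.22 for *Hapln1* and -0.14 to 0.021 for *Hapln2*. Those of *Gtpbp1*-/- footprints ran from -0.30 to 0.061 for *Tnr*, -0.12 to 2.104 for *Acan*, -0.28 to 0.23 for *Vcan*, -0.22 to 0.24 for *Bcan*, -0.69 to 0.16 for *Hapln1* and -0.23 to 0.23 for *Hapln4*. Those of *Gtpbp2*-/- footprints ran from -0.22 to 0.10 for *Tnr* and -0.23 to 0.0019 for *Vcan*. Efficiency ran from -0.0099 to 0.56 for *Ncan* in *Gtpbp1*-/- mice, and from -0.14 to 0.78 for *Tnc* and -0.61 to 0.38 for *Adamts10* in *Gtpbp2*-/- mice.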
